A study of Danio rerio with 6 samples.

Results

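Among the 32253 features of a zebrafish germline expression table, 16 had at least 10 FPKM in both ovary libraries and less than 1 FPKM in every oocyte and testis library. FPKM are fragment numbers scaled by transcript length and by the mapped fragments of the library, so that levels are per length and can be set side by side between genes. Rows above 10000 FPKM in any library were left out of the choice, as were 2 further gene IDs, of which 0 met the thresholds. The 16 features were chosen by these deposited FPKM values in all 6 libraries, so their high ovary level and low oocyte and testis levels are given as a description, with no test.

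RNA was sequenced from adult wild type zebrafish of the TLAB strain, with 2 libraries each of whole ovary dissected from females, mature oocytes pressed out of females, and testis. All 6 libraries share genotype and strain, and no group carries a treatment or transgene. Nothing in the labels ties a library to a fish or gives the number of fish pooled, so p-values measure only the spread between these libraries, which may be technical. The fragment totals behind the FPKM values are unknown, and no counting interval can be given.

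The fish ovary holds oocytes of all growth stages, each wrapped in an inner granulosa layer and an outer theca layer, together with stroma, vessels and blood. An oocyte pressed out of the female has finished growing, matured and left its follicle. A transcript that is abundant in whole ovary and scarce in the mature oocyte can therefore belong to the surrounding cells or to younger oocytes that lose it before ovulation, and whole-tissue RNA does not separate the sources. In such bulk samples, fewer cells of a type and less RNA per cell cannot be told apart either.

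Reaching 10 FPKM in both ovary libraries, without a value above 10000, was common, with 4592 features. Of these, 72 (1.57%) were below 1 FPKM in both oocyte libraries and 299 (6.51%) were below 1 FPKM in both testis libraries. The 16 features with both properties made up 0.348% of the 4592, 22.2% of the 72 and 5.35% of the 299. Gene names for 15 of the 16 came from a reference table that matched 26411 of the 32253 IDs, and 1 feature, ENSDARG00000099957, has no name there. Their mean ovary level was at least 100 FPKM in 3 features, between 20 and 100 FPKM in 7 and under 20 FPKM in 6. The median FPKM over the 16 was 21.6 and 25.9 in the ovary libraries, 0.632 and 0.470 in the oocyte libraries, and 0.294 and 0.243 in the testis libraries. The scatter of all features places most of the 16 close to the corner set by the thresholds, with ecm1a, si:dkeyp-98a7.8, mir22a-2, crp5 and SNORA63 farther inside.

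**Figure D1:**
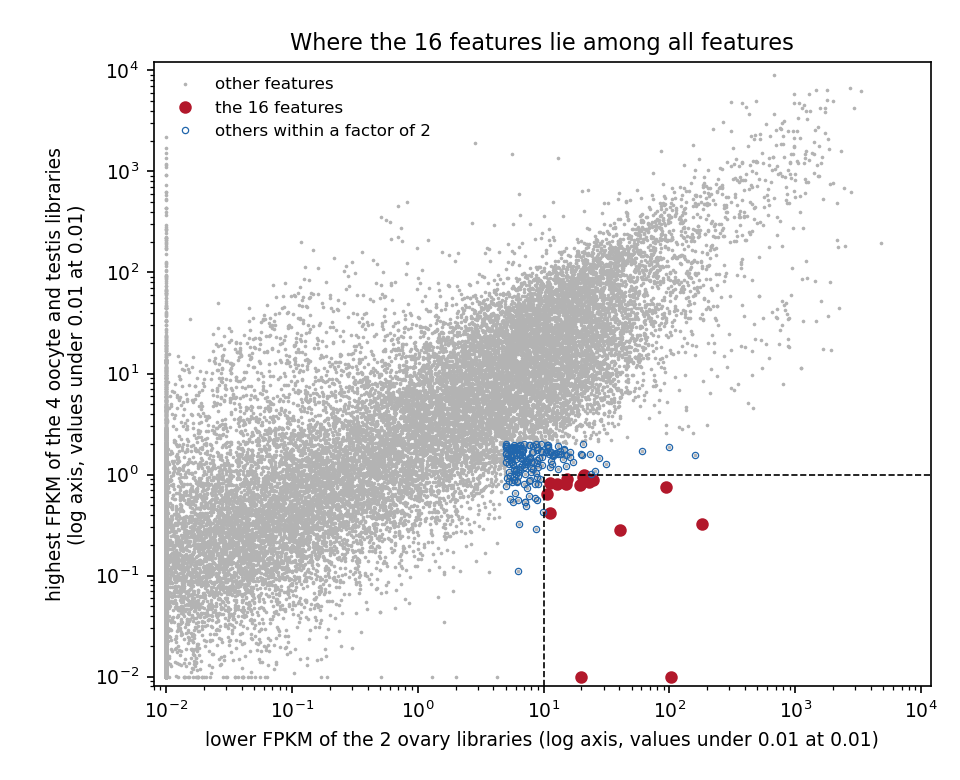
Each point is 1 feature, placed by the lower of its 2 ovary FPKM values on the x axis and the highest of its 4 oocyte and testis FPKM values on the y axis, both on log axes with values under 0.01 drawn at 0.01. The 16 features (red) fill the lower right corner marked by dashed lines at 10 and 1 FPKM, and 162 other features (blue rings) lie within a factor of 2 of every threshold.

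Secreted proteins included the feature with the highest ovary level. ecm1a (ENSDARG00000100535) encodes extracellular matrix protein 1, a secreted glycoprotein known in mammals from skin and bone. It had 180 and 260 FPKM in ovary, 0.305 and 0.326 FPKM in oocyte, and 0.303 and 0.256 FPKM in testis. Both ovary libraries were far above all others, and the oocyte and testis libraries lay close together. Its mean ovary level of 220 FPKM ± 56.9 (SD, n = 2) was 698 times the oocyte mean and 788 times the testis mean.

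crp5 (ENSDARG00000056498) belongs to the C-reactive protein family of pentraxins, secreted proteins that in mammals are made by the liver in the acute-phase response. Its ovary libraries had 40.3 and 59.2 FPKM, its oocyte libraries 0.285 and 0.179 FPKM, and its testis libraries 0.177 and 0.0859 FPKM. The mean ovary level was 214 times that in oocyte and 379 times that in testis, and the testis libraries were both below the oocyte libraries. igl4c1 (ENSDARG00000097677), by its name a constant region of an immunoglobulin light chain, had 14.4 and 10.6 FPKM in ovary. In oocyte it had 0.636 and 0.443 FPKM and in testis 0.359 and 0.580 FPKM, so that oocyte and testis overlapped.

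Proteins of the secretory pathway were represented by cnpy2 and mgat5. cnpy2 (ENSDARG00000007207), of the canopy family of endoplasmic reticulum proteins, had 33.8 and 24.7 FPKM in ovary, 0.717 and 0.883 FPKM in oocyte, and 0.281 and 0.229 FPKM in testis. The testis libraries were both lower than the oocyte libraries. mgat5 (ENSDARG00000071506), the Golgi enzyme that adds a branch to N-linked sugar chains, had 21.1 and 27.1 FPKM in ovary, 0.999963 and 0.860 FPKM in oocyte, and 0.822 and 0.551 FPKM in testis. Its first oocyte library was the value nearest to the upper limit among all 16 features.

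Membrane, signalling and regulatory proteins had ovary levels between 11.2 and 24.9 FPKM. lmcd1 (ENSDARG00000002002), a LIM-domain cofactor of transcription studied in mammalian heart muscle, had 24.9 and 19.4 FPKM in ovary, 0.780 and 0.459 FPKM in oocyte, and 0.631 and 0.507 FPKM in testis. RASL11B (ENSDARG00000015611), a small GTPase related to Ras, had 22.1 and 11.3 FPKM in ovary, 0.280 and 0.317 FPKM in oocyte, and 0.420 and 0.352 FPKM in testis. Testis overlapped oocyte in lmcd1 and was the higher of both in RASL11B. MFSD6L (ENSDARG00000014761), a membrane protein of the major facilitator superfamily of transporters, had nearly equal ovary levels of 15.3 and 15.2 FPKM. Its oocyte libraries had 0.809 and 0.404 FPKM and its testis libraries 0.760 and 0.669 FPKM. ARRDC2 (ENSDARG00000020761), an alpha-arrestin, is related to the adaptors that link membrane proteins to ubiquitin ligases. It had 12.4 and 11.2 FPKM in ovary, 0.405 and 0.480 FPKM in oocyte, and 0.826 and 0.605 FPKM in testis, again higher in testis than in oocyte.

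Noncoding RNAs made up 3 of the 16. mir22a-2 (ENSDARG00000082168), a precursor locus of the microRNA miR-22, had 121 and 103 FPKM in ovary and was listed at 0 in all 4 oocyte and testis libraries. SNORA63 (ENSDARG00000083378), an H/ACA small nucleolar RNA of the class that guides pseudouridylation of ribosomal RNA, had 19.8 and 69.4 FPKM in ovary and was also listed at 0 in the other 4 libraries. Both are far shorter than a messenger RNA, so a few fragments give a high FPKM. Of 281 features named as microRNAs or small nucleolar RNAs, 237 (84.3%) were listed at 0 in all 6 libraries. A further measure of this behaviour was the share with at least 10 FPKM in some library and 0 in another, which was 27 of 281 (9.61%) for these short RNAs and 233 (0.729%) for the other features. mir22a-2 was the only 1 of 226 microRNA features, and SNORA63 the only 1 of 55 small nucleolar RNA features, with at least 10 FPKM in both ovary libraries. Other features named for the same RNAs, MIR22, mir22b and the second SNORA63 (ENSDARG00000081702), were listed at 0 in all libraries, and near-identical copies can share or lose reads in alignment.

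ENSDARG00000105356, which the reference table names as a long noncoding RNA, had 20.7 and 44.2 FPKM in ovary and 0.937 and 0.709 FPKM in oocyte. In testis it had 0.0249 FPKM in the first library and was listed at 0 in the second. It was thus close to the upper limit in oocyte and near absent from the testis values.

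The remaining features have no described product in the sources used here. si:dkeyp-98a7.8 (ENSDARG00000094674) had 153 and 93.6 FPKM in ovary, 0.378 and 0.754 FPKM in oocyte, and 0.1702 and 0.1531 FPKM in testis, which places its ovary mean second to that of ecm1a. ENSDARG00000099957 had 23.1 and 31.4 FPKM in ovary, 0.841 and 0.747 FPKM in oocyte, and 0.286 and 0.230 FPKM in testis. For both, the oocyte libraries were above the testis libraries. si:dkey-179j5.5 (ENSDARG00000074538) had 17.1 and 15.5 FPKM in ovary, 0.628 and 0.912 FPKM in oocyte, and 0.0176 and 0.0340 FPKM in testis. si:ch211-10d23.5 (ENSDARG00000095510) had 14.4 and 12.8 FPKM in ovary, 0.725 and 0.732 FPKM in oocyte, and 0.809 and 0.702 FPKM in testis. The former differed most between oocyte and testis among these features without a described product, and the latter had oocyte values between its testis values.

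**Figure D2:**
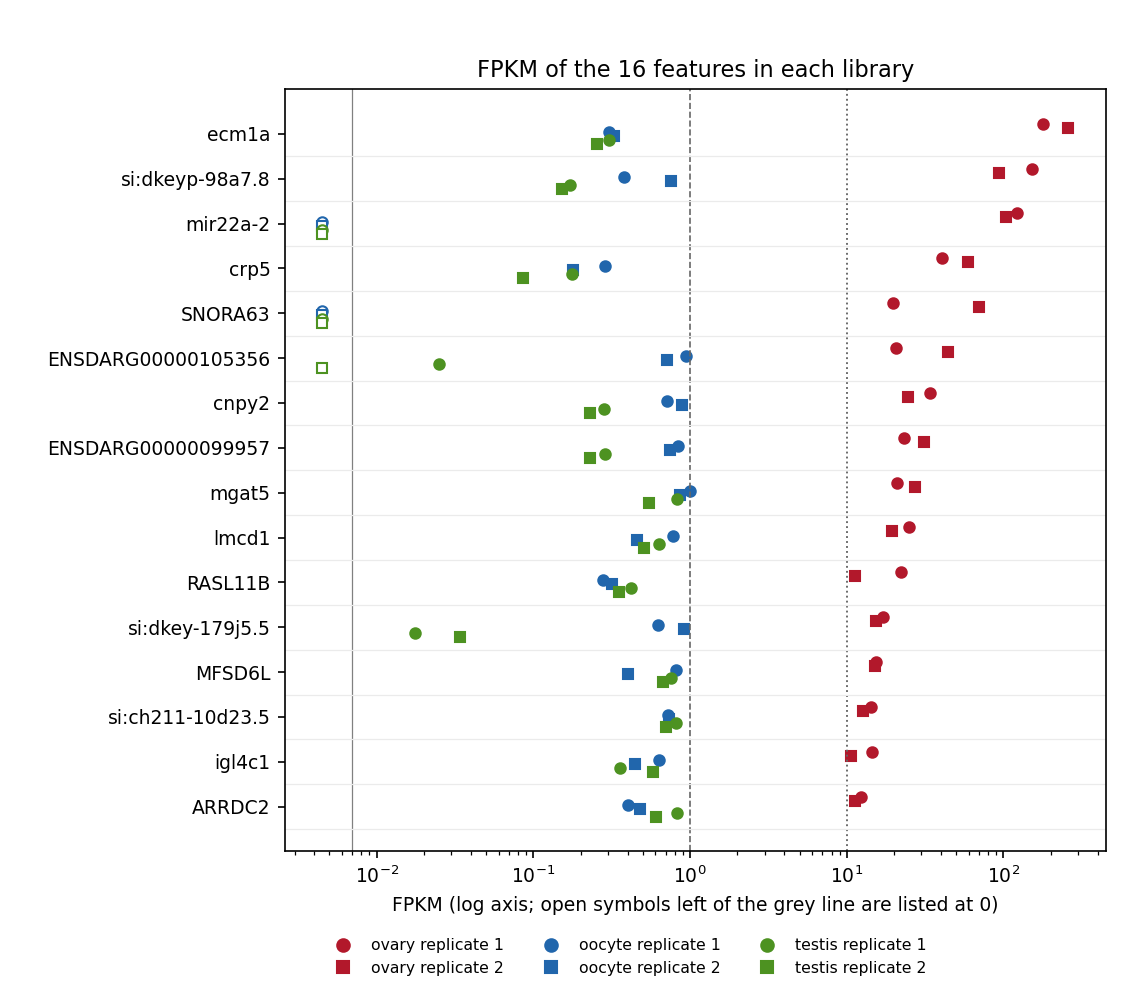
FPKM of each of the 16 features (rows, ordered by mean ovary level) in each of the 6 libraries on a log axis, with circles for replicate 1 and squares for replicate 2 and open symbols for values listed at 0. Dashed and dotted lines mark 1 and 10 FPKM; ecm1a reaches 260 FPKM in ovary, and ENSDARG00000105356 and si:dkey-179j5.5 are lowest in testis among the features not listed at 0 in both testis libraries.

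Ovary levels were compared between the 2 libraries as a description. The median fold between ovary libraries was 1.35 over the 16 features and 1.18 over the 4592 features with at least 10 FPKM in both. A difference of at most 1.5-fold held for 12 of the 16 and for 86.3% of the 4592. The direction was mixed, with the first ovary library higher in 10 features and the second in 6. SNORA63, at 3.50-fold, and ENSDARG00000105356, at 2.13-fold, were the features with the widest gaps, both higher in the second library. RASL11B and si:dkeyp-98a7.8 had the widest gaps in favour of the first library.

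How many rows met the rule depended on both ovary libraries. Leaving a library out drops a condition, so it can only add rows. Without the first ovary library 30 rows met it, and without the second 32, against 16 to 22 when an oocyte or testis library was left out. Applied to the libraries numbered 1 alone the rule gave 48 rows, and to those numbered 2 alone 51. The rows that meet it in both sets are the 16 by definition, and the numbers are not known to pair libraries across tissues. The scale of the libraries mattered as well. After median-of-ratios scaling, which divided the ovary values by 1.24 and 1.27, the oocyte values by 1.32 and 1.36, and the testis values by 0.572 and 0.539, 10 rows met the thresholds, of which 9 were among the 16. The 7 features no longer inside were mgat5, lmcd1, RASL11B, MFSD6L, si:ch211-10d23.5, igl4c1 and ARRDC2, so that ecm1a, si:dkeyp-98a7.8, mir22a-2, crp5, SNORA63, ENSDARG00000105356, cnpy2, ENSDARG00000099957 and si:dkey-179j5.5 met the rule on both scales. After quantile normalization 12 rows met it, all 12 among the 16.

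The thresholds cut through a continuous range of values. Just above the ovary minimum were igl4c1 with a lower ovary value of 10.6 FPKM, ARRDC2 with 11.2 FPKM and RASL11B with 11.3 FPKM. Just below the limit of 1 FPKM, beside mgat5, were ENSDARG00000105356 with 0.937 FPKM and si:dkey-179j5.5 with 0.912 FPKM in 1 oocyte library each. Outside the ovary minimum the nearest row was zpd, an egg coat gene, with 9.93 and 13.0 FPKM in ovary, followed by zgc:173726 with a lower ovary value of 9.40 FPKM and STAP2 with 9.01 FPKM. The rows nearest outside the upper limit were si:ch211-241b2.4 with 1.02 FPKM in 1 oocyte library, ALG2 with 1.07 FPKM in 1 testis library and zgc:174935 with 1.13 FPKM in 1 oocyte library. In all, 162 rows outside the rule lay within a factor of 2 of every threshold and 14 within a factor of 1.2.

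Over all 13717 features with at least 1 FPKM in at least 2 libraries, limma was fitted on log2(FPKM + 1) of the deposited values. At an adjusted p under 0.05 and a difference of at least 1, it called 22.2% higher in ovary than in oocyte. Against testis it called 43.8% higher in ovary, 6011 features, and 2251 lower. This balance depended on the scale: after median-of-ratios scaling 3130 of 14416 were higher in ovary than in testis and 4341 lower. All 16 features were called higher in ovary in both comparisons, which their choice fixes and from which nothing is read.

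Oocyte and testis were compared with each other for the 16 features, since the rule held both under 1 FPKM but did not use their difference. limma was fitted on log2(FPKM + 0.1) over the same 13717 features, with the same call rule. The fit shared 1 spread per feature over all 6 libraries, so each SE also rests on the ovary libraries. mir22a-2 and SNORA63, listed at 0 in all oocyte and testis libraries, had SE 0.268 and 0.561. Of all features tested 76.2% were called, 50.6% as lower and 25.7% as higher in testis. Of the 16 features, 5 were called, all 5 lower in testis, a share of 31.2% that was below the background. Since the levels of both tissues were capped at 1 FPKM by the choice, differences among these features had less room than those of other features. All 16 also passed the filter of the fit through their ovary libraries alone. The background was not chosen in this way, so nothing is read from the gap between the 2 shares. The median difference, testis minus oocyte, was -0.16 over the 16 features, of which 2 were at 0 in both tissues, and -1.14 over all features tested.

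The difference was widest for ENSDARG00000105356 and si:dkey-179j5.5. Testis minus oocyte was -3.04 (SE 0.419, limma adjusted p = 0.000477) for ENSDARG00000105356 on the log2(FPKM + 0.1) scale. For si:dkey-179j5.5 the difference was -2.77 (SE 0.299, limma adjusted p = 0.000141). Smaller differences were called for cnpy2, at -1.34 (SE 0.296, limma adjusted p = 0.00479), and for ENSDARG00000099957, at -1.32 (SE 0.289, limma adjusted p = 0.00457). si:dkeyp-98a7.8 differed by -1.29 (SE 0.389, limma adjusted p = 0.0189), a call that was lost without the second oocyte library, where the difference was -0.87 (limma adjusted p = 0.0803). It was also lost without the first testis library, at -1.34 (limma adjusted p = 0.0832), and without the second, at -1.24 (limma adjusted p = 0.101). Both testis libraries were below both oocyte libraries in each of these 5 features. The pseudocount shrinks differences of values this low, so these are not fold changes of the FPKM themselves. The rule had capped the oocyte and testis values behind each difference, and the filter was passed through ovary alone. The SE and adjusted p therefore describe the fit, and nothing further is read from them. Fitted on the oocyte and testis libraries only, 5 features were also called.

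Features not called ranged from -0.53 for crp5 (limma adjusted p = 0.212) to 0.58 for ARRDC2 (limma adjusted p = 0.101). Without a test, the oocyte libraries were both above the testis libraries in 8 of the 16 features and both below in 2, RASL11B and ARRDC2, while 6 overlapped or were at 0. The corresponding shares of all features tested were 58.7% and 31.6%. The scale decided much of this comparison. Median-of-ratios scaling moved the median of all features tested to 0.36 and that of the 16 to 0.50. On it ENSDARG00000105356 and si:dkey-179j5.5 were still called lower in testis, while ARRDC2 at 1.68, MFSD6L at 1.38, RASL11B at 1.30, si:ch211-10d23.5 at 1.18 and lmcd1 at 1.03 were called higher. The other 3 calls were lost on that scale, with si:dkeyp-98a7.8 at -0.36, cnpy2 at -0.32 and ENSDARG00000099957 at -0.30. Quantile normalization moved the medians to -0.32 and -0.64, and there 6 features were called, all lower in testis, with crp5 at -1.35 beside the 5 named above. The calls of si:dkey-179j5.5 held in 19 of 19 settings of the fit and those of ENSDARG00000105356 in 18 of 19. Those of cnpy2 and ENSDARG00000099957 held in 16 of 19 each, and those of si:dkeyp-98a7.8 in 12 of 19. All settings reuse the same capped values, so these counts describe the processing and add no further evidence of a difference.

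**Figure D3:**
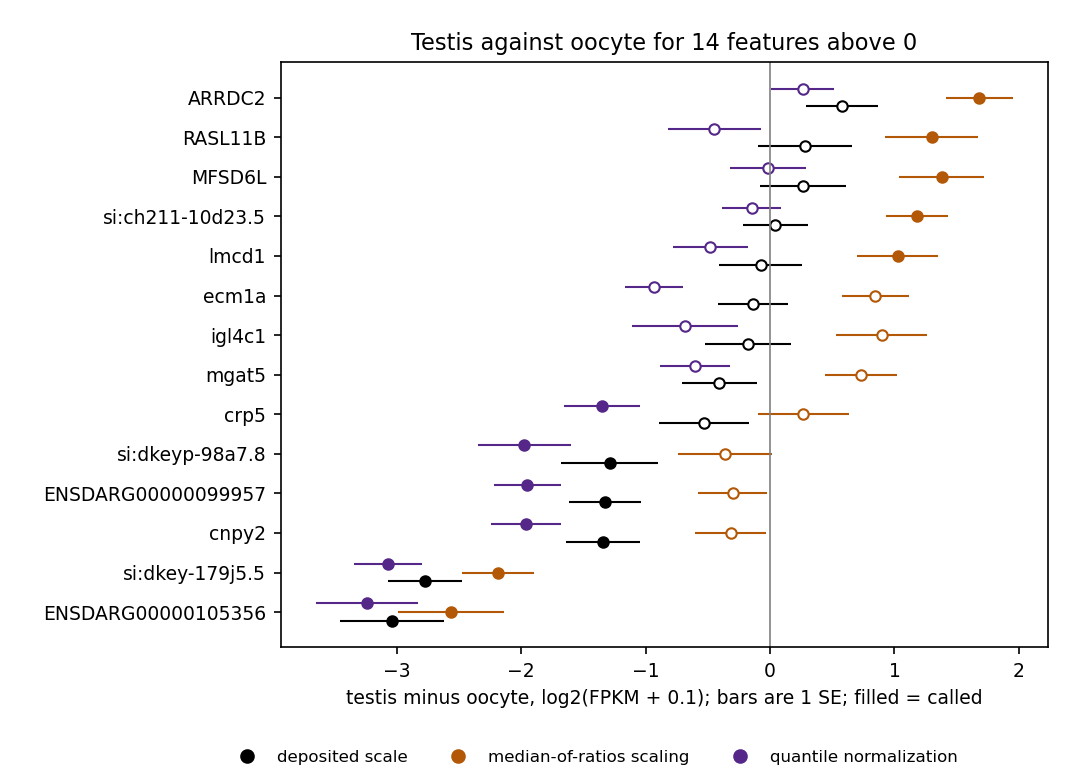
Testis minus oocyte on the log2(FPKM + 0.1) scale for the 14 features above 0 in either tissue, with bars of 1 SE, on the deposited scale (black), after median-of-ratios scaling (orange) and after quantile normalization (purple); filled points were called by limma. ENSDARG00000105356 and si:dkey-179j5.5 lie to the left of 0 on all 3 scales, and ARRDC2 lies to the right on all 3 but is filled on 1.

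Genes related by name to the 16 were mostly outside the rule, each in its own way. In the reference order of coding genes (RefSeq, assembly GRCz12tu, used for order alone), crp5 lies among crp1, crp2, crp3, crp6 and crp7. crp2 had 27139 and 115554 FPKM in ovary, 1432 and 672 FPKM in oocyte, and 66.8 and 12.9 FPKM in testis, and was therefore above the limits of the rule in all 6 libraries. crp3 had 7.94 and 32.9 FPKM in ovary, 0.466 and 0.247 FPKM in oocyte, and 1.32 and 1.01 FPKM in testis. The second ovary library was thus the higher of both for crp2, crp3 and crp5. The order was the reverse for crp1, with 2.28 and 1.47 FPKM, crp6, with 1.15 and 0.125 FPKM, and crp7, with 3.84 and 1.19 FPKM. In oocyte crp6 had 0.343 and 0.652 FPKM, and it did not pass the filter of the fit. On the log2(FPKM + 1) scale, limma called ovary above oocyte for crp1 at 1.45 (adjusted p = 0.000461), crp2 at 5.83 (adjusted p = 0.00263) and crp3 at 3.69 (adjusted p = 0.00201), and not for crp7 at -0.59 (adjusted p = 0.208). Against testis, limma called all 4 higher in ovary, from 1.46 for crp1 to 10.83 for crp2. Reads of crp2 that align to crp5 could add to its level in ovary, and the amount was not tested.

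Genes that share the clone name of si:dkeyp-98a7.8 were split. si:dkeyp-98a7.9 had 392 and 269 FPKM in ovary and si:dkeyp-98a7.7 had 60.3 and 112 FPKM, both with more than 1 FPKM in an oocyte library and less than 1 FPKM in testis. limma called both higher in ovary than in oocyte, at 4.78 (adjusted p = 0.000176) and 5.48 (adjusted p = 0.000211) on the log2(FPKM + 1) scale. si:dkeyp-98a7.3 and si:dkeyp-98a7.4 were listed at 0 in both ovary libraries and were called lower in ovary than in oocyte, at -1.67 and -1.33. si:dkeyp-98a7.5 had 0.672 and 0.515 FPKM in ovary and was listed at 0 in oocyte and testis. In the values as listed, genes of 1 clone name therefore had opposite differences between ovary and oocyte. Whether reads of similar copies were shared or lost in alignment was not tested.

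Among the relatives of other features, ecm1b had 1.44 and 0.791 FPKM in ovary and was called in neither comparison, at 0.60 against oocyte (limma adjusted p = 0.0551) and -0.21 against testis (limma adjusted p = 0.409). CNPY4 was called higher in ovary in both, at 1.15 and 2.15, CNPY3 in neither. CNPY1, with 10.9 and 9.74 FPKM in ovary, was called lower in ovary than in oocyte at -1.53 (limma adjusted p = 0.00109). The 2 features named MFSD6 were called higher in ovary in both comparisons, and rasl11a, with 1.799 and 1.505 FPKM in testis, was called lower in ovary than in testis at -1.28. ARRDC3 (ENSDARG00000036028) was higher in ovary than in oocyte at 2.64 and than in testis at 1.68. Another feature named ARRDC3 (ENSDARG00000052690) was called in neither, at 0.27 against oocyte and -0.74 against testis. arrdc1a had 102 and 101 FPKM in oocyte against 12.5 and 16.5 FPKM in ovary. The calls given for relatives are those of the deposited scale, and calls against testis were not all robust. Relatives and some rows near the thresholds were counted once per alternative setting. Of these counts against testis, 7 were a lost call, 12 a gained call, 4 a changed sign and 341 no change. The changed signs were those of CNPY1, ecm1b and, after both median-of-ratios scaling and quantile normalization, CNPY3. The variable-region genes igl4v8, igl4v9 and igl4v10, named for the same light-chain class as igl4c1, had at most 1.05 FPKM in any of the 6 libraries. At these low levels igl4v10 was also highest in ovary, with 1.05 and 0.738 FPKM. It had 0.0819 and 0.0171 FPKM in oocyte, and 0.0209 and 0.0179 FPKM in testis. In ovary igl4v8 had 0.274 and 0.137 FPKM, and igl4v9 had 0 and 0.0434 FPKM. Other genes named as light-chain constant regions had other patterns. igl1c3 had 0.133 and 0.193 FPKM in ovary, 0 in oocyte, and 3.36 and 11.9 FPKM in testis. igic1s1 had 0.925 and 3.98 FPKM in ovary, 0 in oocyte, and 1.26 and 3.81 FPKM in testis. igl3c3 was listed at 0 in all libraries.

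**Figure D4:**
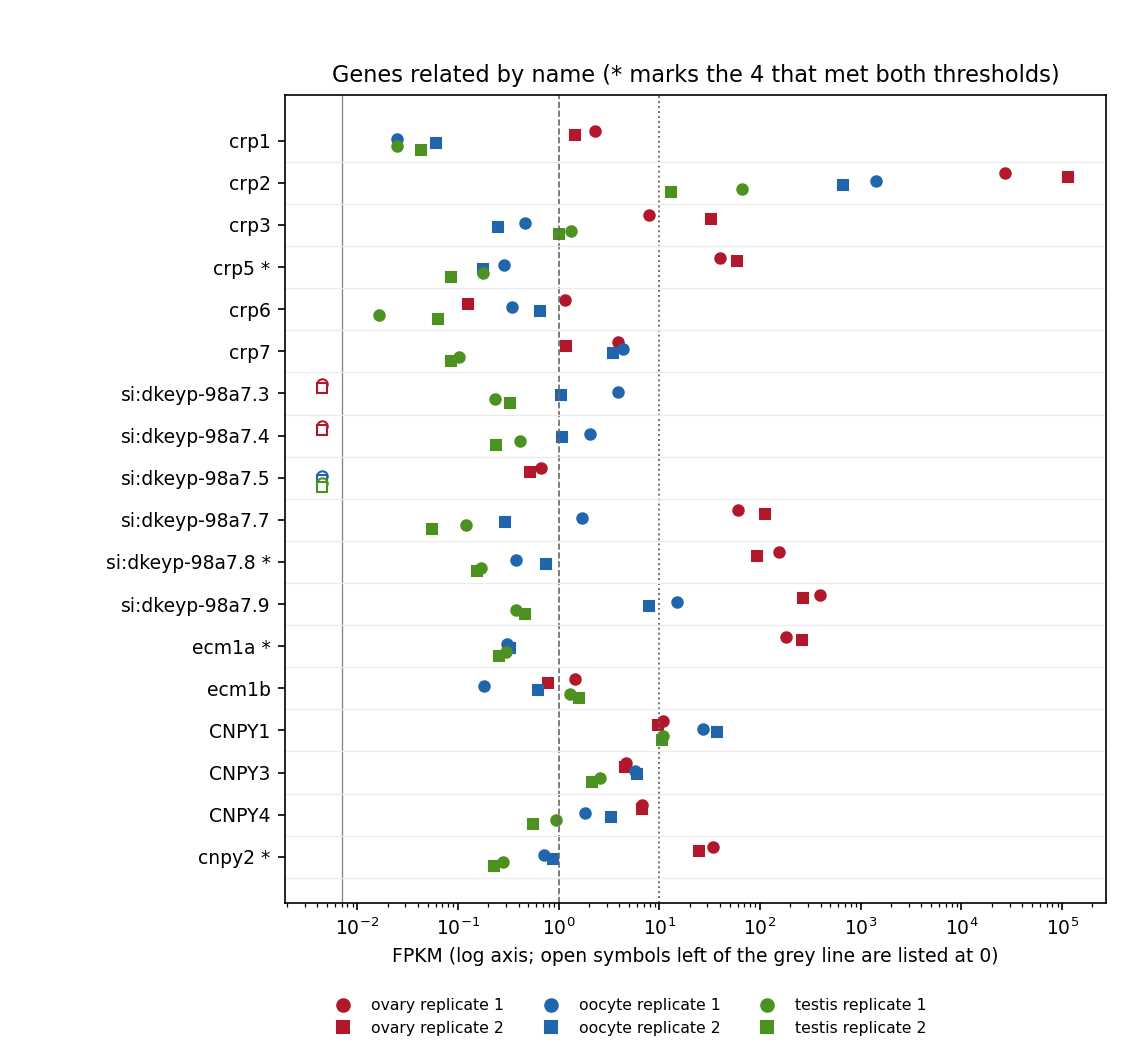
FPKM in each of the 6 libraries on a log axis for the genes named crp, si:dkeyp-98a7, ecm1 and cnpy, with circles for replicate 1, squares for replicate 2, open symbols for values listed at 0, and an asterisk on the 4 features that met both thresholds. crp2 reaches 115554 FPKM in ovary, while ecm1b stays below 2 FPKM in all libraries.

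In the reference gene order 11 of the 16 features could be placed, and the 5 coding genes on either side of each were examined. Of 69 different neighbours with values, 13 had at least 10 FPKM in both ovary libraries, and of these 2 were below 1 FPKM in both testis libraries, tom1 beside MFSD6L and si:dkeyp-98a7.7. Of the 13, 0 were below 1 FPKM in both oocyte libraries. Of all 32253 features, 4592 reached that ovary level. Of these 4592, 6.51% were below 1 FPKM in both testis libraries and 1.57% in both oocyte libraries. With so few neighbours, nothing is read from these counts.

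Marker genes of the cells that an ovary sample can hold were examined in 15 lists of 306 symbols, of which 211 matched 1 feature. Of these, 31 had at least 10 FPKM in both ovary libraries, 2 of them were below 1 FPKM in both oocyte libraries, acta2 and the egg coat gene zp3d.2, and 9 were below 1 FPKM in both testis libraries. The lists hold 0 of the 16 features, which make up 0.348% of all features at that ovary level, so that nothing is read from this count. Of 29 granulosa symbols only 13 matched 1 feature, so the list is covered in part. Those that matched were mostly low in these ovary libraries. The 13 that matched summed to 18.9 and 35.9 FPKM in ovary, 5.54 and 3.65 FPKM in oocyte, and 1237 and 1362 FPKM in testis, nearly all of the last from gsdf. fshr, the receptor for follicle-stimulating hormone, had 0.0286 and 0.0848 FPKM in ovary against 0.543 and 0.469 FPKM in testis. Against oocyte, limma on log2(FPKM + 1) called 3 of 5 granulosa markers tested higher in ovary, and against testis 0 of 5 higher and 3 lower. The median over the 5 was 1.12 against oocyte and -1.47 against testis, where that over all features was -0.02 and 0.82. Median-of-ratios scaling moved the latter to -0.12. The 15 matched theca and steroid markers summed to 608 and 775 FPKM in ovary, mostly the lipoprotein receptor scarb1 with 558 and 688 FPKM, to 101 and 96.8 FPKM in oocyte, and to 1072 and 2023 FPKM in testis. Nearly all of the testis sums came from insl3, with 976 and 1899 FPKM. Genes of steroid synthesis on that list differed in level: hsd3b2 had 14.3 and 46.3 FPKM in ovary, cyp17a2 13.3 and 12.9 FPKM and cyp17a1 8.77 and 14.5 FPKM, while star had 0.117 and 0.167 FPKM.

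Markers of blood and neighbouring organs had summed levels in ovary that differed by list and by library. The 22 white blood cell markers summed to 43.6 and 66.1 FPKM in ovary, mostly nccrp1, 39.4 and 28.6 FPKM in oocyte, and 147 and 143 FPKM in testis. Beside igl4c1, the B cell marker cd79a was listed at 0 in the first ovary library and at 0.102 FPKM in the second, and the pan-leukocyte gene ptprc was at 0.0466 and 0.0502 FPKM. Other markers of this list were higher in ovary. After nccrp1 the highest were cd74a, with 6.16 and 7.27 FPKM, and b2m, with 2.07 and 2.64 FPKM. Markers of liver, pancreas and gut, of which 16 matched, summed to 15.8 FPKM in the first ovary library and 87.7 FPKM in the second, to 3.84 and 0.882 FPKM in oocyte, and to 131 and 303 FPKM in testis. The pancreatic protease prss1 gave 11.2 and 76.9 FPKM of the ovary sums. The liver genes of this list had at most 1.35 FPKM in ovary and mostly went the other way. In the second ovary library vtg1, vtg2, vtg5, apoa1a, apoa1b, apoa2 and fabp10a were lower than in the first. There tfa and fgb were higher, and ttr was listed at 0 in both. Of the 16 features, 6 were higher in the second ovary library and 10 in the first, and whether other tissue in the libraries has a part in their levels was not tested.

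The egg coat genes, which fish oocytes express while they grow, were the list with the most genes called higher in ovary than in both other tissues. The 16 genes of this list that matched summed to 9570 and 13611 FPKM in ovary, 359 and 271 FPKM in oocyte, and 30.5 and 26.5 FPKM in testis. limma called 11 of them so, against 0 to 2 genes in each of the other 14 lists, which differ in size. A count of 2 was reached by 3 lists, among 6 ovulation genes, 10 theca and steroid genes and 23 early oocyte and meiosis genes tested. The share of all features tested was 14.7% on the deposited scale. On that scale 26.8% of all features tested were lower in ovary than in oocyte and 16.4% lower in ovary than in testis. The shares against testis depended on the scale. The other 5, zp2.1, zp2.2, zp2.3, zp2.5 and zp2.6, were called lower in ovary than in oocyte and were listed at 0 in both ovary libraries. All 5 were above 0 in every oocyte and testis library. Whether reads of similar copies were shared or lost in alignment was not tested, so a listed 0 need not mean absent RNA. For the 10 genes of this list with at least 10 FPKM in both ovary libraries, the ratio of ovary to oocyte means ran from 3.35 to 119 with a median of 39.8, and that of ovary to testis means from 10.98 to 1338 with a median of 671. zp2l1 and zp2l2, related by name but not on the list, also had at least 10 FPKM in both ovary libraries. zp2l2 had 36.1 and 36.1 FPKM there, 138 times its oocyte mean and 8.34 times its testis mean, outside both ranges. Over the 14 features above 0 in oocyte and testis, the first ratio ran from 18.6 to 698 with a median of 35.0, and the second from 16.5 to 2607 with a median of 74.5. The rule by which these features were chosen holds both of their ratios above 10. The egg coat genes were not chosen in this way, so nothing is read from setting the ratios side by side. The highest of these, 2607 for ENSDARG00000105356, rests on a testis mean in which 1 library was listed at 0.

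Of 24 matched markers of early oocytes and meiosis, 10 had at least 10 FPKM in both ovary libraries, 0 of which were below 1 FPKM in both oocyte libraries, where the share of all such features was 1.57%. DDX4, a germ cell helicase, and DAZL, a germ cell RNA-binding protein, had lower means in ovary than in oocyte and in testis. Of these 10, the maternal-effect gene ZAR1 had the highest ratio of ovary to oocyte, with 1102 and 1172 FPKM in ovary, 11.3 and 9.06 FPKM in oocyte, and 1.93 and 1.67 FPKM in testis. limma called 2 of 23 tested higher in ovary than in both other tissues. The sperm line list, with 9 matched genes, was called lower in ovary than in testis for 8, and its summed level was 257 and 220 FPKM in testis against 8.65 and 15.02 FPKM in ovary and 7.53 and 6.18 FPKM in oocyte.

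**Figure D5:**
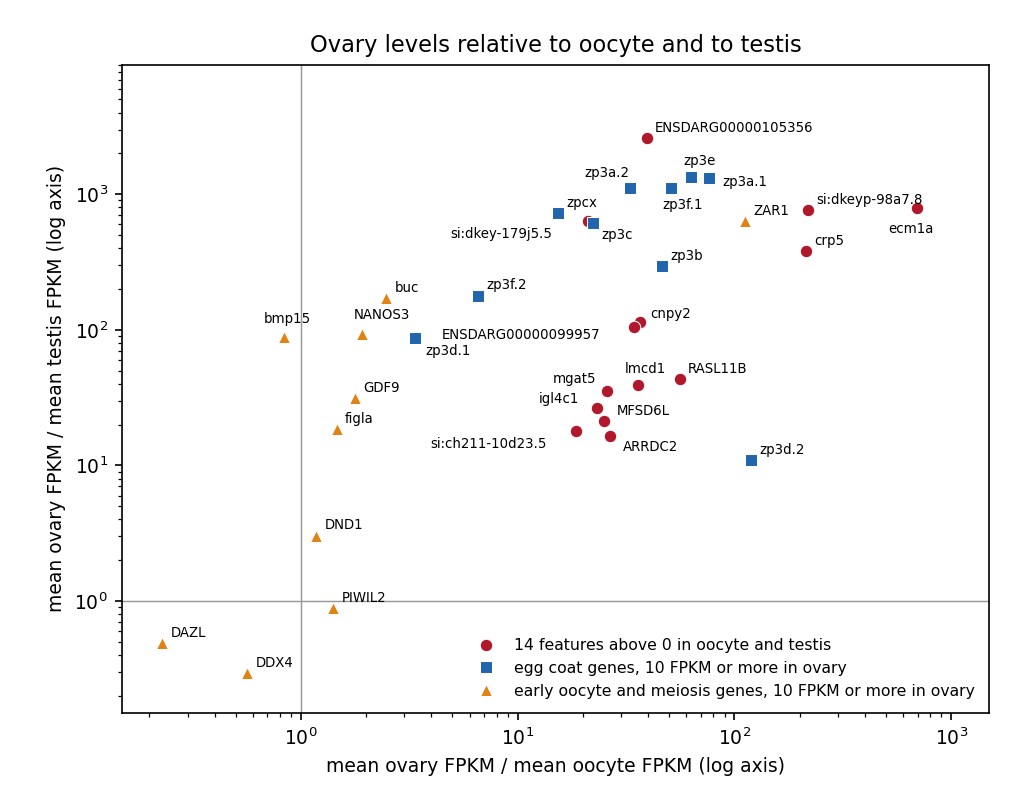
Ratio of the mean ovary FPKM to the mean oocyte FPKM (x) and to the mean testis FPKM (y) on log axes for the 14 features above 0 in oocyte and testis (red circles), 10 egg coat genes (blue squares) and 10 early oocyte and meiosis genes (orange triangles), the genes of both lists with at least 10 FPKM in both ovary libraries. ecm1a lies farthest right at 698, ENSDARG00000105356 highest at 2607, and of the egg coat genes zp3d.1 lies farthest left at 3.35 and zp3d.2 lowest at 10.98. The choice of the 14 features holds both of their ratios above 10, which is not so for the genes of the lists.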

How the data were processed

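The authors deposited 1 table of FPKM values for 6 libraries (2 each of ovary, oocyte and testis); per the submitters' processing notes TopHat, Bowtie2 and Cuffnorm were used with the GRCz10 build. Versions and read totals are not given in the sources used here, so depth is unknown. Per the labels' protocols, libraries were strand-specific and read as 76-base pairs.

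Comparisons used limma 3.58.1 in R 4.3.3 on log2(FPKM + a pseudocount), 0.1 for testis against oocyte and 1 for ovary against either, over 13717 features with at least 1 FPKM in at least 2 libraries, with 1 mean per tissue, a trended prior and Benjamini-Hochberg adjustment over all of them (two-sided). The code was tested on simulated data. Features named are all 16 chosen, their relatives by name and the rows nearest outside the thresholds; others were named after their values were seen. The features, lists and tests were chosen with earlier results of these data known. Names come from a table of gene IDs. Alternatives covered thresholds, scaling, pseudocounts, filters, a replicate block and left-out libraries.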

Additional observations from a re-analysis of the deposited data

How the results depend on the processing

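The number of features meeting the rule, 16, became 48 with an ovary minimum of 5 FPKM, 8 with 20, 5 with a limit of 0.5 FPKM, 55 with a limit of 2, 44 on tissue means, 10 after median-of-ratios scaling, 48 and 51 on the libraries numbered 1 or 2 alone, and 16 to 32 with 1 library left out. Features called between testis and oocyte numbered 2 with a pseudocount of 0.5, 1 with a pseudocount of 1 and the adjusted p alone, and 4 to 5 with 1 library left out, where a lone library is assumed to vary like the others. Median-of-ratios scaling reversed ecm1a to 0.84, crp5 to 0.27, mgat5 to 0.73, lmcd1 to 1.03 and igl4c1 to 0.90, and for ovary against testis CNPY3 to -0.17; quantile normalization reversed RASL11B to -0.45, MFSD6L to -0.0146, si:ch211-10d23.5 to -0.15 and CNPY3 to -0.0307. Leaving out 1 library in turn changed the sign of lmcd1 (-0.40 to 0.25), MFSD6L (-0.16 to 0.69), si:ch211-10d23.5 (-0.0468 to 0.13) and igl4c1 (-0.46 to 0.11), and, for ovary against testis, of CNPY1 (-0.13 to 0.0159) and ecm1b (-0.44 to 0.00921); the cause was not tested. The median oocyte level of the features, 0.587 FPKM, was 0.438 after median-of-ratios scaling and 0.470 to 0.632 with 1 library left out; the median testis level, 0.268 FPKM, was 0.482 after that scaling and 0.208 with the ovary minimum of 20 FPKM, where 1 feature was at 0 in oocyte and 1 in testis.

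The labels do not say that replicate numbers pair libraries across tissues, and the replicate differences correlated at -0.386, 0.207 and -0.179 between tissues, so the numbers were not treated as pairs. With a replicate block 5 of the features were called, and 10360 of all features against 10458 without it; with the oocyte numbers exchanged, an alternative chosen after seeing the data, the counts were 5 and 10612. Fragment totals are unknown, so levels near 0 have no counting limit.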
